A study of Equus caballus with 6 samples.

Results

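The HOX genes were followed across 6 regions of horse joint tissue, each measured on 1 microarray. Members were all non-control probes whose description named a gene of the HOXA, HOXB, HOXC or HOXD cluster, by symbol, gene number or full name. The rule found 67 probes for 33 HOX genes, of 43603 probes and 12931 named genes on the array. A RefSeq table of horse genes (assembly TB-T2T, used for names and for the order of neighbours) lists 39 HOX genes. HOXA3, HOXA4, HOXA13, HOXB4, HOXB8 and HOXD9 had no probe by the rule and were not analysed here.

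The fetal tissue came from hindlimbs on day 40 of gestation. Its intermediate and outer interzone are layers of the tissue that lies between skeletal elements where a joint will form, and transient embryonic cartilage is the cartilage of the bone models. The adult regions were layers of articular cartilage of the stifle (the horse's knee) at 15 years: a superficial layer in the outer 10% of the depth, a middle layer at 20 to 30% and a deep one at 50 to 90%. All regions were collected from sections of 10 µm by laser capture microdissection, and their RNA was amplified by PCR before labelling. Strain, genotype, treatment and the number of animals were not given in the sources used here.

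HOX genes encode transcription factors that bind DNA through a homeodomain and give cells their position along the body axis and along the limb. They lie side by side in clusters, and members of different clusters that hold the same place in the order share a number and form a paralogue group. Low-numbered genes act mostly in the head and neck, middle numbers in the trunk, and high numbers in the lower trunk, tail and limbs, where groups 9 and 10 are needed for the upper limb segment, group 11 for the segment below it and group 13 for hand and foot. HOX proteins bind DNA together with cofactors of the TALE class (PBX, MEIS and PKNOX), and their genes are switched by retinoic acid and kept on or off by trithorax and Polycomb proteins.

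Every region had 1 array, so a difference below describes these arrays, has no replicate check and carries no p-value. The scanner software marks a spot as well above background when its signal clears the local background by a set margin, and this mark was used as detection. Between 36.9% and 44.6% of probes were well above background on the fetal arrays, 26.4% on the adult superficial array, 10.8% on the deep and 8.40% on the middle array. The fetal arrays lay on slide 1 and the adult arrays on slide 2, so slide and stage cannot be told apart. As a check of the labels, 8 to 13 of 13 chondrocyte markers were well above background on each fetal array and 4 to 6 on each adult array. COL2A1, the main cartilage collagen gene, was well above background on no adult array. Summed over the 13 chondrocyte markers, the signal, scaled as described below, was 235033 in the deep layer and 161318 in transient cartilage. It was 20166 in the superficial and 10336 in the middle layer. The interzone marker GDF5 was well above background in both interzone layers and not in transient cartilage. Of 10 interzone markers 8, 7 and 5 were seen in the intermediate interzone, outer interzone and transient cartilage. In the superficial, middle and deep adult layers 4, 2 and 1 were seen. The housekeeping gene GAPDH was not well above background on the adult middle array. None of 7 endothelial markers was well above background on a fetal array, and 1 was on each adult array. Of 7 blood and immune markers 4 were seen on each fetal array. In the intermediate interzone, outer interzone and transient cartilage, 3, 4 and 5 of 10 skeletal muscle markers were seen. For nerve and Schwann cells it was 1, 1 and 3 of 7, for bone 2, 1 and 2 of 6 and for epithelium 0, 2 and 0 of 7. Of all named genes 38.3%, 44.2% and 46.5% were seen there, and 28.9%, 9.65% and 12.3% in the superficial, middle and deep adult layers. The part of such cells in the HOX values was not tested.

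Each probe is a run of 60 bases, and probes that cross-react could blur paralogues, so the sequences of the probes for some members that carry the results are shown. They are read from the scanner files, 5′ to 3′. Capitals mark a stretch of 11 letters, TT, any base, CAGAA, any base, CG, which lies in the coding sequence of the recognition helix of the homeodomain, the part that touches DNA. The first probe belongs to group 1.
HOXB1: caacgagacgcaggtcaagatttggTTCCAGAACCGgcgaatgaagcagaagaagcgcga
The next probes belong to groups 4, 6 and 8.
HOXC4: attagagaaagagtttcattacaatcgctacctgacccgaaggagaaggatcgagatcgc
HOXA6: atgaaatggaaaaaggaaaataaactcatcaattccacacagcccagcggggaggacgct
HOXC6: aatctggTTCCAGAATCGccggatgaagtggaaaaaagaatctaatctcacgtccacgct
HOXD8: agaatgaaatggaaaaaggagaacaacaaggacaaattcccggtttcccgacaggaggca
The last probes belong to groups 9 to 13.
HOXA9: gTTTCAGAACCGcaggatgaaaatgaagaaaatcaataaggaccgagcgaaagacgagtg
HOXB9: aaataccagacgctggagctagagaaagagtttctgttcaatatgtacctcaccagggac
HOXC10: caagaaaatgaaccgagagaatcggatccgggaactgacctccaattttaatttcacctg
HOXD12: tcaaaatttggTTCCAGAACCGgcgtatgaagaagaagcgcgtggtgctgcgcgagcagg
HOXB13: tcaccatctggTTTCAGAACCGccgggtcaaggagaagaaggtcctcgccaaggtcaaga

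The stretch, searched on both strands, was in 13 HOX probes of 9 genes and in 45 of all 43603 probes (0.103%). The longest run of identical letters between probes of different HOX genes was 21 bases, between HOXC5 and HOXD1. HOXB1 and HOXD12 shared 20 bases, and HOXA6 and HOXD8 17. Of the 67 HOX probes, 29 shared a run of at least 12 bases with a probe of another HOX gene. The longest run shared with a probe outside the clusters was 26 bases, and HOXB3 shared 24 bases with the homeobox gene EVX2. How far such runs let a transcript bind a second probe was not tested. HOXB1 and HOXD12 were both well above background in transient cartilage, at 7.24 and 5.84, and on no other shared array. Some other pairs were alike in level as well as in sequence. HOXA9 and HOXD1 shared 18 bases, and HOXB9 and HOXC4 shared 15. On the fetal arrays these genes were each highest in the intermediate interzone and lowest in transient cartilage. HOXC5, which shared 21 bases with HOXD1, was seen in the intermediate interzone only. The part of shared runs in these levels was not tested. The GC content of the HOX probes ran from 35.0% to 55.0%, with a median of 43.3%, equal to that of all probes.

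Of the 33 genes, 30 were well above background on at least 1 array: 18 on fetal arrays only, 10 on fetal and adult arrays and 2, HOXC12 and HOXD3, on adult arrays only. In the intermediate interzone 20 of 33 (60.6%) were well above background, against 38.3% of all named genes. In the outer interzone it was 21 (63.6%) against 44.2%, and in transient cartilage 21 (63.6%) against 46.5%. On the adult arrays it was 12 (36.4%) against 28.9% in the superficial layer, 5 (15.15%) against 9.65% in the middle layer and 5 (15.15%) against 12.3% in the deep layer, which is close to the share of all genes. With every probe of a gene required, the middle layer had 3, against 7.22%. With a limit of 4 times the lowest signal well above background, the fetal arrays had 11, 16 and 11, against 28.8%, 34.4% and 34.7%. The adult arrays then had 6, 1 and 1, against 20.4%, 3.88% and 6.29%. HOXB2 was the one member seen on all 6 arrays. HOXA5, HOXA9, HOXA10, HOXB1, HOXC9, HOXC10 and HOXD1 were seen on all 3 fetal arrays and on no adult array.

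**Figure D1:**
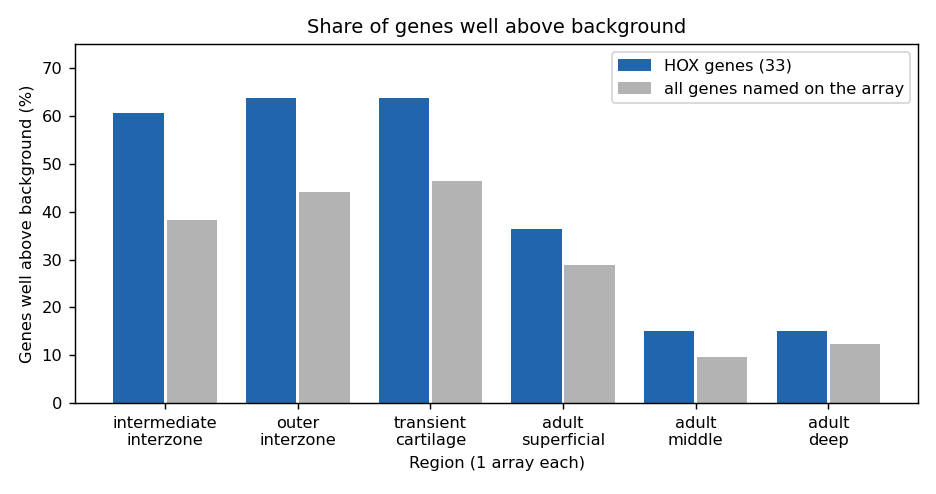
Percentage of genes well above background on each of the 6 arrays (1 per region), for the 33 HOX genes (blue bars) and for all named genes (grey bars). The HOX share is 60.6% to 63.6% on the fetal arrays, where that of all genes is 38.3% to 46.5%, and the bars lie closer together on the adult arrays.

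By cluster, all 8 measured HOXA genes were seen in the outer interzone, 7 in the intermediate interzone and 6 in transient cartilage. Of 8 HOXD genes 2 were seen in the intermediate interzone, 4 in the outer layer and 5 in transient cartilage. HOXB ran the other way, with 6, 5 and 4 of 8, and HOXC had 5, 4 and 6 of 9. The HOXB counts differ by HOXB7, at 9.66 close to the limit of 7.44, and by HOXB13. Over all named genes the shares were 38.3% in the intermediate interzone, 44.2% in the outer layer and 46.5% in transient cartilage. They were 28.9%, 9.65% and 12.3% in the superficial, middle and deep adult layers. On the middle and deep adult arrays no HOXC gene was seen, 1 HOXA gene, 1 HOXB gene (HOXB2 on both) and 3 HOXD genes. By position in the order, 6 of 7 genes of groups 1 to 3 were seen in each interzone layer and 5 in transient cartilage. Of 14 genes of groups 9 to 13, 8 were seen in each interzone layer and 9 in transient cartilage, and 4 in the adult superficial layer.

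**Figure D2:**
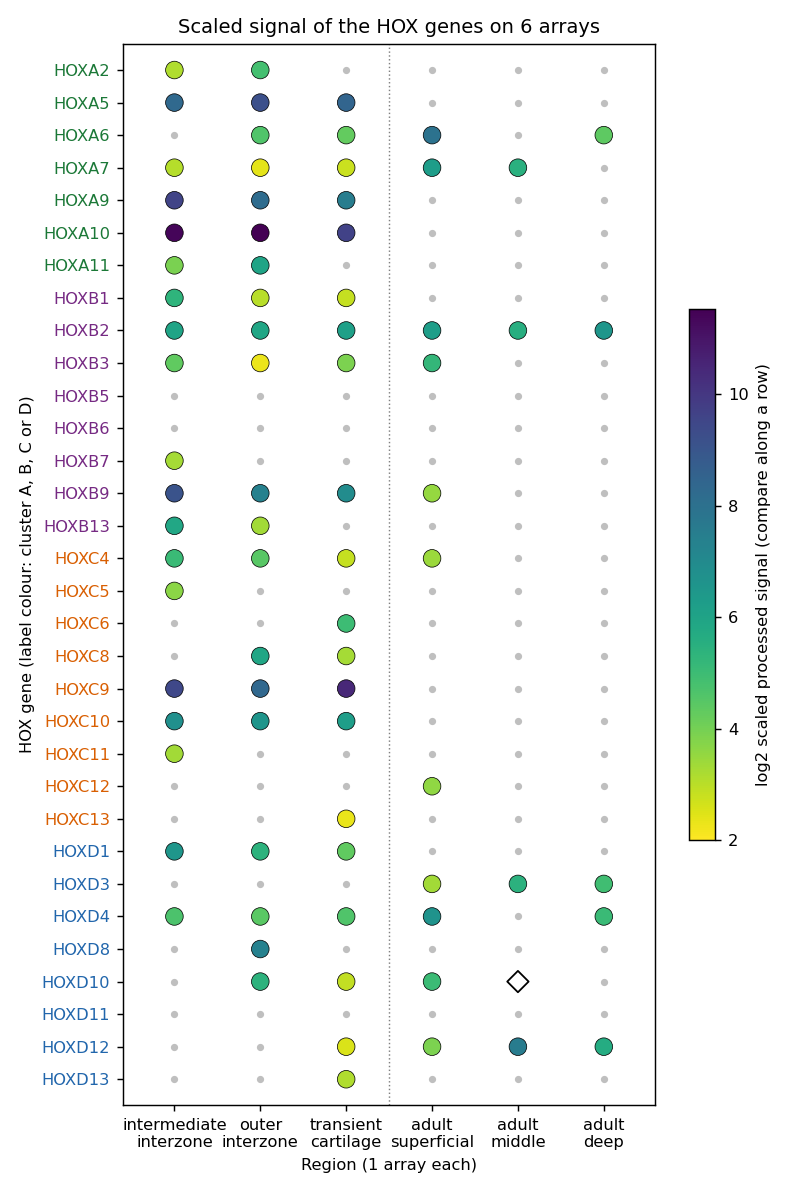
Scaled signal of HOX genes (rows, in cluster order) on the 6 arrays (columns), as colour on a log2 scale. Filled circles are well above background by the reported probe, the diamond (HOXD10 in the adult middle layer) by another probe of the gene, and grey dots are not well above background. Colours can be compared along a row, since probes differ in brightness. The 3 left columns are marked for most genes and the 2 right columns for 5 genes each, the middle layer with the diamond among its 5.

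Levels below are scaled processed signals of the reported probe, the probe with the highest mean. The processed signal is the scanner software's background-subtracted brightness, and scaling brings the 75th percentile of the 1765 probes seen on all arrays to 1 common value. A level is compared only with that of the same gene on another array. The lowest scaled signal well above background was 7.44 in the intermediate interzone, 3.94 in the outer layer, 4.10 in transient cartilage, 6.22 in the superficial, 30.0 in the middle and 16.6 in the deep adult layer. A fold difference of a member seen on 1 array only is given as "at least", against the higher of that limit and its own signal on the dim array. Bounds were recomputed under 6 other scalings, background corrections or sources, chosen after seeing the data, and their range is given where it is wide. The error after ± is the spot error on the log2 scale, which leaves out variation between animals, dissections and amplifications. Probes of 1 gene gave differences that varied with a pooled SD of 0.50 to 0.55 log2 units between fetal arrays and 0.72 to 1.04 between other pairs, over all genes.

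Among the genes of groups 1 to 3, HOXB1 and HOXD1 stood highest in the intermediate interzone. HOXB1, which acts in the hindbrain, measured 40.7 in the intermediate interzone, 8.19 in the outer layer and 7.24 in transient cartilage. It was not well above background in any adult layer. HOXD1, its group 1 paralogue, measured 91.8, 42.0 and 20.2 in the same order and was not seen in the adult. It fell in steps from the intermediate interzone over the outer interzone to transient cartilage, while HOXB1 was high in the intermediate layer and about level in the others.

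HOXA2, a gene of the second branchial arch, measured 8.69 in the intermediate interzone and 28.9 in the outer layer and was not well above background elsewhere. HOXB2, the member seen on all 6 arrays, measured 62.1, 59.4 and 70.1 on the fetal arrays and 75.5, 46.5 and 91.9 in the superficial, middle and deep adult layers. HOXB3 measured 20.0, 4.84 and 14.8 on the fetal arrays, lowest in the outer interzone, and 36.8 in the superficial layer. HOXD3, a gene of the first neck vertebrae, was seen in the adult only, at 9.89, 43.1 and 30.4 in the superficial, middle and deep layers. Its 5 probes, whose starts lie within 4 bases, did not agree: 3 were well above background on the superficial array and 1 on each of the others.

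In groups 4 to 8 the pattern differed from gene to gene. HOXC4 measured 33.9 in the intermediate interzone, 22.1 in the outer layer, 7.10 in transient cartilage and 10.9 in the adult superficial layer. HOXD4, its paralogue, was about level on the fetal arrays at 26.1, 21.8 and 24.8, and higher in the superficial layer at 98.1. In the deep layer it measured 33.6 and in the middle layer it was not well above background. HOXA5, a gene of neck, sternum and lung development, measured 316, 585 and 352 on the fetal arrays and was not seen in the adult. Its other probe, which starts 1 base away, gave 270, 555 and 294. By both probes the outer interzone was highest.

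HOXA6 and HOXA7, trunk genes of neighbouring paralogue groups, both measured highest in the adult superficial layer. HOXA6 measured 24.7 in the outer interzone, 19.6 in transient cartilage, 244 in the superficial layer and 20.7 in the deep layer. HOXA7 measured 8.29, 5.19 and 6.83 on the fetal arrays, close to the detection limit, then 77.0 in the superficial and 45.0 in the middle layer, an order that turned with normexp and with quantile normalization. HOXC6 was seen in transient cartilage only, at 32.1.

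HOXC8 and HOXD8, paralogues of the trunk, were highest in the outer interzone. HOXC8 measured 58.5 there and 9.73 in transient cartilage. Its other probe gave 52.8 in the outer interzone and was not detected well above background in transient cartilage. HOXD8 was well above background in the outer interzone alone, where its 5 overlapping probes gave 134 to 167. On the same probes the signal was at most 1.88 in the intermediate interzone and 1.45 in transient cartilage. HOXB7 (9.66) and HOXC5 (12.7) were seen in the intermediate interzone only, HOXC5 with 2 of its 5 probes, and both lay close to the detection limit of 7.44.

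Of groups 9 and 10, the genes of the upper limb segment, HOXA9, HOXB9, HOXC9, HOXA10 and HOXC10 were well above background on all 3 fetal arrays. HOXA9 measured 775 in the intermediate interzone, 294 in the outer layer and 182 in transient cartilage. Its 4 overlapping probes spanned 766 to 837, 222 to 294 and 141 to 182, so the ranges of the 3 regions did not overlap. HOXB9 followed the same order, with 543, 165 and 124, and was still seen in the adult superficial layer at 11.5. HOXC9 had another order: it measured 711 in the intermediate interzone, 327 in the outer layer and 1425 in transient cartilage. Over its 5 probes the ranges were 588 to 791, 279 to 358 and 1122 to 1493 and did not overlap either. The group 9 paralogues thus differed in which region was highest.

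**Figure D3:**
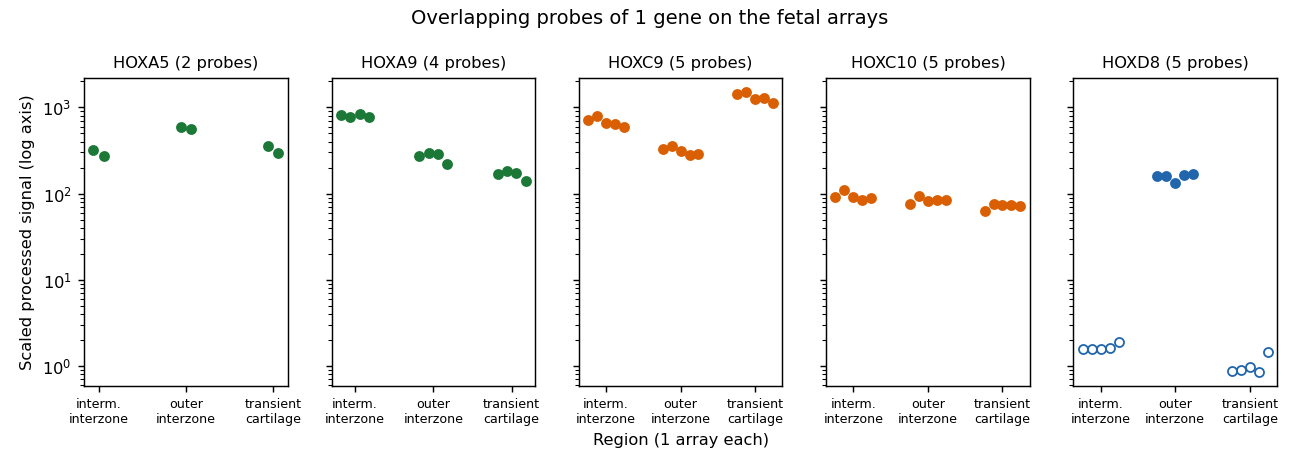
Scaled processed signal (log axis) of each probe of HOXA5, HOXA9, HOXC9, HOXC10 and HOXD8 on the 3 fetal arrays. Each point is 1 probe, filled where it is well above background. The probes of a gene start within 6 bases of each other, so they repeat the measurement of the same RNA and are not biological replicates. HOXA9 is highest in the intermediate interzone, HOXC9 in transient cartilage and HOXD8 is seen in the outer interzone only.

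HOXA10 measured 2713 in the intermediate interzone, 2953 in the outer layer and 805 in transient cartilage. It stood at 1.31 in the adult superficial layer, not well above background. HOXC10, a gene of the hindlimb and lumbar trunk, was about level at 109, 93.3 and 75.1 and was not well above background on an adult array. HOXD10 measured 42.9 in the outer interzone, 7.42 in transient cartilage and 32.7 in the superficial layer by its reported probe. Its other probe starts 62 bases away, was not well above background on any fetal array, and gave 23.2 in the superficial and 79.6 in the middle layer. The probes of HOXD10 therefore disagreed on the regions in which it was seen.

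Of group 11, HOXA11, a gene of the middle limb segment, measured 15.1 in the intermediate interzone and 62.9 in the outer layer and was not detected well above background in transient cartilage (0.873). HOXC11 was seen in the intermediate interzone only (9.98), and HOXD11 on no array. HOXD12, a gene of the digits, was highest in the adult middle layer, at 191, with 51.2 in the deep layer, 14.7 in the superficial layer and 5.84 in transient cartilage. HOXC12 was seen with 1 of 5 overlapping probes in the superficial layer only, at 11.8. In group 13, HOXB13, a gene of the tail and prostate, measured 58.1 in the intermediate interzone and 10.1 in the outer layer and was not seen elsewhere. HOXC13, known from hair and nail, and HOXD13, a gene of hand and foot, were seen in transient cartilage only, at 5.02 and 8.73, near the detection limit of 4.10.

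HOXB5, HOXB6 and HOXD11 were well above background on no array. HOXB5 had 5 probes, and HOXB6 and HOXD11 had 1 each. Their highest scaled signals on the fetal arrays were 3.90, 7.88 and 1.52 by the reported probe. The 7.88 of HOXB6, in the intermediate interzone, lay above the lowest signal well above background on that array, 7.44, and still did not carry the mark.

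The first comparison, of the intermediate interzone with transient cartilage, asks how HOX expression differs between the future joint and the cartilage of the bone models. Of 14 HOX genes measured on both arrays, 5 (35.7%) stood at least 4-fold higher in the former and 0 at least 4-fold lower. Over all 4120 genes measured on both, 15.1% were at least 4-fold higher and 6.72% lower. HOXB1 was 5.62-fold higher (2.49 ± 0.28), HOXC4 4.77-fold (2.25 ± 0.28), HOXD1 4.55-fold (2.19 ± 0.22), HOXB9 4.39-fold (2.13 ± 0.20) and HOXA9 4.25-fold (2.09 ± 0.20). HOXA10 followed at 3.37-fold. HOXC9 was 2.01-fold lower, and the other 7 lay within 2-fold.

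Scaling decides how many members pass 4-fold in this pair. With the median in place of the 75th percentile of the shared probes, 0 of 14 did, since all 5 lay between 4.25-fold and 5.62-fold and that scaling lowered every difference by the same amount. HOXB1 ranged from 1.52 to 2.62 log2 units over the 7 alternatives. The direction of the 7 members at least 2-fold apart held in all 7 alternatives. The median of the 14 members was 0.49 and that of all genes 0.37. Over all genes the split was 623 higher and 277 lower at 4-fold, and 386 and 482 with the median of the shared probes. The summed scaled signal of the chondrocyte markers was 5256 in the intermediate interzone, 10667 in the outer layer and 161318 in transient cartilage. In the same pair 8 of 8 measured chondrocyte markers lay at least 4-fold below transient cartilage and 4 of 5 interzone markers stood at least 4-fold above transient cartilage. Whether the mix of cells has a part in the HOX differences was not tested, and in such bulk samples fewer cells of a type and less RNA per cell cannot be told apart.

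A further 6 HOX genes were seen in the intermediate interzone only and 7 in transient cartilage only, of 33. The shares over all genes were 5.96% and 14.1%. The bound was at least 14.2-fold for HOXB13, 3.69-fold for HOXA11, 3.101-fold for HOXC5, 2.43-fold for HOXC11, 2.35-fold for HOXB7 and 2.12-fold for HOXA2. In the other direction it was at least 4.31-fold for HOXC6 and 2.64-fold for HOXA6, and with normexp, a background correction that pulls dim signals together, neither kept a bound and that of HOXB13 fell to 3.82-fold. The other 5 seen in transient cartilage only (HOXC8, HOXC13, HOXD10, HOXD12 and HOXD13) were too dim for a bound above 1.31-fold.

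The outer interzone was next set against transient cartilage, whose single array also served in the comparison before. Of 17 HOX genes measured on both, 2 stood at least 4-fold higher on the first array and 1 at least 4-fold lower. With the 50th percentile over all probes it was 4 and 0, as with the series table, and with normexp 0 and 1. With the mean over all probes of a gene it was 1 and 1. Over 4593 genes the shares were 10.6% and 8.43%. HOXC8 was 6.02-fold higher (2.59 ± 0.24) and HOXD10 5.78-fold (2.53 ± 0.27). HOXC9 was 4.36-fold lower (-2.12 ± 0.20), with its 5 probes between -2.20 and -1.98. It stood at -1.74, short of 4-fold, with the 50th percentile over all probes and with the series table. HOXA10 was 3.67-fold higher, HOXC4 3.12-fold and HOXD1 2.08-fold. HOXB3 was 3.07-fold lower. Over all genes the split was 486 higher and 387 lower, and 654 and 276 with the 50th percentile over all probes. With normexp, HOXC8 stood at 0.66, HOXD10 at 0.62, HOXD1 at 0.20, HOXB3 at -0.61 and HOXC4 at 0.04, where its difference was gone.

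The members seen on 1 of these arrays only were 4 in each direction. The shares over all genes were 8.19% for the outer interzone and 10.5% for transient cartilage. Higher in the outer interzone were HOXD8 by at least 40.7-fold, HOXA11 at least 15.3-fold, HOXA2 at least 7.04-fold and HOXB13 at least 2.47-fold. HOXC6 was at least 8.14-fold lower, HOXD13 at least 2.22-fold, HOXD12 at least 1.48-fold and HOXC13 at least 1.28-fold. With normexp the bounds fell to 4.39-fold for HOXD8, 2.28-fold for HOXA11, 1.44-fold for HOXA2 and 2.48-fold for HOXC6, and HOXB13 had none. In this pair 9 of 11 measured chondrocyte markers lay at least 4-fold below transient cartilage, and their part in the HOX values was not tested.

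**Figure D4:**
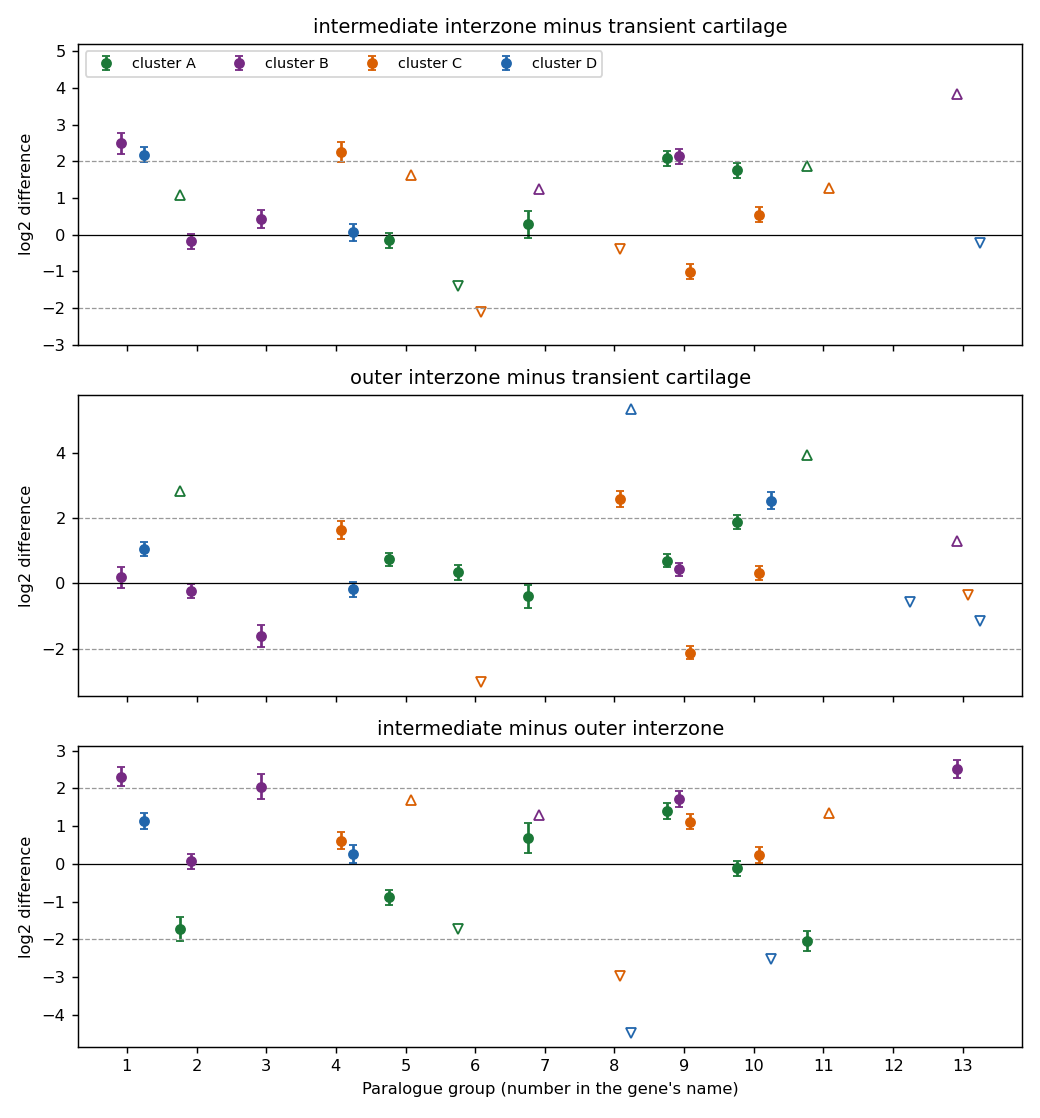
Log2 differences between pairs of fetal arrays for each HOX gene, placed by paralogue group and coloured by cluster. Filled circles are genes well above background on both arrays with the spot error, open triangles are bounds for genes seen on 1 array only and point away from 0, and dashed lines mark 4-fold. HOXB1 lies near 2.49 in the top panel, HOXC9 below -2 in the middle panel, and HOXD8 has the largest bounds in the 2 lower panels.

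The layers of the interzone were then compared with each other. Of 17 HOX genes measured on both arrays, 3 stood at least 4-fold higher in the intermediate layer and 1 lower by that much, against 11.1% and 7.29% of 4076 genes. With the median of the shared probes the split over all genes moved from 452 higher and 297 lower to 336 and 402. HOXB13 was 5.74-fold higher (2.52 ± 0.24), HOXB1 4.97-fold (2.31 ± 0.26) and HOXB3 4.12-fold (2.04 ± 0.33). HOXB9 was 3.28-fold higher and HOXA9 2.64-fold. Of the 5 measured HOXB genes 4 were at least 2-fold higher, against 25.9% of all genes, the median of the cluster being 2.04 against 0.22 for all genes. The fifth, HOXB2, was 1.04-fold higher. Among genes measured on both arrays, 2 were over 2-fold lower in the intermediate layer, both of cluster A: HOXA11 was 4.16-fold lower (-2.06 ± 0.27) and HOXA2 3.32-fold lower (-1.73 ± 0.32). Under normexp correction these turned to 0.26 and 0.88, and they held their direction in the other 6 alternatives.

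Lower in the intermediate layer were HOXD8 by at least 22.4-fold, HOXC8 at least 7.87-fold, HOXD10 at least 5.77-fold and HOXA6 at least 3.32-fold. With normexp HOXD8 kept a bound of 1.72-fold and the other 3 none. The other probe of HOXD10 was well above background in neither layer. HOXC5, HOXC11 and HOXB7, seen in the intermediate layer only, had bounds of at least 3.23-fold, 2.53-fold and 2.45-fold. Such one-sided members were 3 of 33 in the intermediate and 4 in the outer layer, against 6.35% and 12.2% of all genes. HOXA10, HOXC10, HOXD4 and HOXB2 differed by at most 1.19-fold between the layers. Chondrocyte markers were lower in the intermediate layer too (median -1.29 over 8 measured), and their part was not tested.

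Position in the order was described within each pair, where a difference between groups of genes does not change with a scaling that shifts all values alike. In the intermediate interzone against transient cartilage, groups 9 to 13 had a median of 1.75 over 5 genes, groups 1 to 3 of 0.43 over 5 and groups 4 to 8 of 0.17 over 4. In the outer interzone against transient cartilage the medians were 0.56 over 6, -0.24 over 5 and 0.53 over 6. Between the interzone layers they were 1.12 over 7, 0.76 over 6 and 0.44 over 4. Each group held members on both sides of 0 in at least 1 of these pairs, and no group moved as a block. Group 9 itself ranged from -1.004 (HOXC9) to 2.13 (HOXB9) in the first pair.

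The adult superficial layer, which had the most detected genes of the adult layers, was set against each fetal region. Against transient cartilage, 3 of 10 HOX genes measured on both were at least 4-fold higher in the adult and 1 at least 4-fold lower. Over 2868 genes the shares were 21.0% and 14.1%. HOXA6 was 12.4-fold higher (3.63 ± 0.22), HOXA7 11.3-fold (3.49 ± 0.27) and HOXD10 4.40-fold (2.14 ± 0.27). HOXD4 was 3.95-fold higher, HOXD12 2.52-fold and HOXB3 2.48-fold. HOXB9 was 10.8-fold lower (-3.43 ± 0.28). The count followed the scaling, and over all genes the split moved from 602 higher and 405 lower to 1741 and 84 with the 75th percentile over all probes and to 464 and 568 with the median of the shared probes. Of the members, 9 of 10 were at least 4-fold higher with the 75th percentile over all probes, which raised the median of all genes from 0.33 to 2.54, and 8 of 10 with quantile normalization. HOXA6 at 2.29 to 5.84 and HOXA7 at 1.57 to 5.70 were higher in the adult under all 7 alternatives, and HOXB9 at -3.98 to -1.22 lower.

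Other members were seen on 1 side only. Of 33, 11 HOX genes were seen in transient cartilage and not in the superficial layer, and 2 the other way, against 23.8% and 6.31% of all genes. HOXC9 was at least 229-fold lower in the superficial layer, HOXA10 at least 129.5-fold, HOXA5 at least 56.7-fold, HOXA9 at least 29.3-fold and HOXC10 at least 12.1-fold. HOXC12 was higher by at least 2.89-fold and HOXD3 by at least 2.41-fold. The size of such a bound depends on the scaling: over the 6 alternatives it ran from 29.8-fold to 335-fold for HOXC9, 19.4-fold to 189-fold for HOXA10, 7.28-fold to 82.9-fold for HOXA5, 4.92-fold to 42.9-fold for HOXA9 and 2.38-fold to 17.7-fold for HOXC10. For HOXC12 and HOXD3 it ran from 1.54-fold to 13.4-fold and from 1.33-fold to 11.1-fold. Against the intermediate interzone, HOXA10 was at least 436-fold lower (63.8-fold to 436-fold over the alternatives) and HOXA9 at least 125-fold (20.2-fold to 125-fold), and HOXB9, measured on both, 47.3-fold lower (-5.56 ± 0.28). These values set slide 2 against slide 1, so stage, age and slide cannot be told apart.

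Against the intermediate interzone 1 of 7 members was at least 4-fold higher (HOXA7, 9.28-fold, from 0.46 to 5.53 log2 units over the 7 alternatives) and 1 at least 4-fold lower (HOXB9). Over 2557 genes the shares were 16.0% and 18.1%. Against the outer interzone 4 of 9 passed 4-fold upward and 1 downward, with shares of 19.5% and 15.0% over 2818 genes. Seen on 1 side only were 5 in the superficial layer and 13 in the intermediate interzone (8.77% and 18.1% of all genes), and 3 and 12 with the outer interzone (6.74% and 22.0%). With the 75th percentile over all probes the splits over all genes moved from 408 higher and 463 lower to 1421 and 118, and from 549 and 424 to 1808 and 85. The 4 were HOXA7 at 14.8-fold, HOXA6 at 9.87-fold, HOXB3 at 7.61-fold and HOXD4 at 4.49-fold. HOXC4 was 3.12-fold lower in the superficial layer than in the intermediate interzone, and that direction turned with scaling, as did its 2.04-fold difference from the outer interzone.

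**Figure D5:**
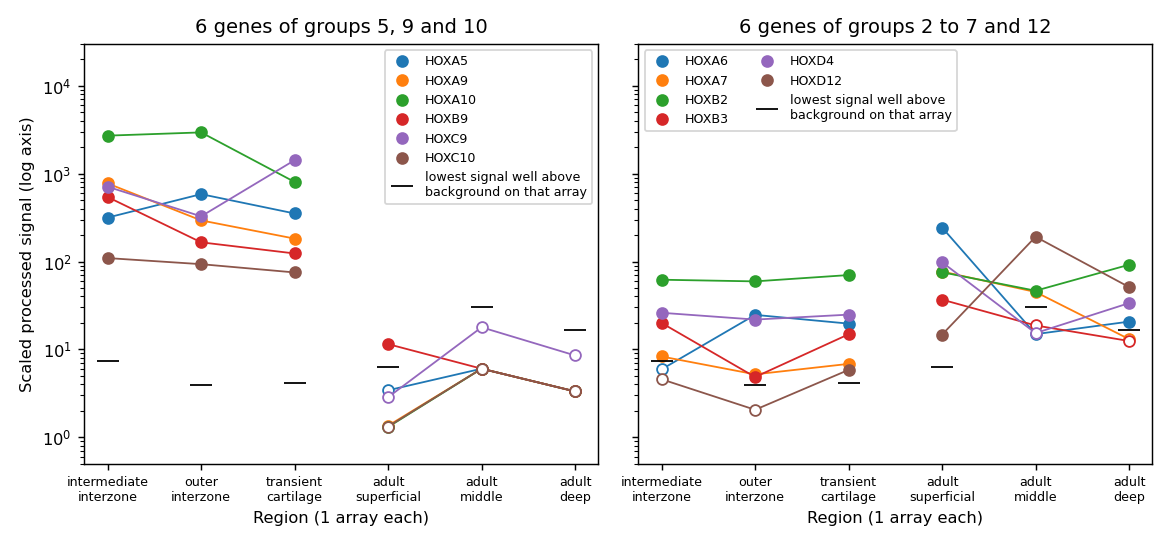
Scaled processed signal (log axis) on the 6 arrays for 6 HOX genes of groups 5, 9 and 10 (left) and for 6 genes of groups 2 to 7 and 12 (right). Filled points are well above background, open points are not, and black dashes give the lowest signal well above background on each array. Lines join regions of 1 stage. HOXA10 falls from 805 to 2953 on the fetal arrays to below the limit in the adult, while HOXA6 peaks at 244 in the superficial layer and HOXD12 at 191 in the middle layer.

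The middle and deep adult arrays held few measured members. In the middle layer HOXD12 was 32.8-fold higher than in transient cartilage (5.03 ± 0.30) and HOXA7 6.58-fold. Over the 7 alternatives HOXD12 ran from 3.03 to 7.48 log2 units and HOXA7 from 1.41 to 5.59. HOXB2 was 1.51-fold lower, a direction that turned in 3 of 7 alternatives, with values from -1.90 to 2.82. Over the 929 genes measured on both, 42.1% were at least 4-fold higher and 10.4% lower, and the median was 1.45. That split of 391 higher and 97 lower became 719 and 19 with the 75th percentile over all probes and 184 and 185 with the 50th. In the deep layer HOXD12 was 8.77-fold higher than in transient cartilage (3.13 ± 0.31), and HOXA6, HOXB2 and HOXD4 lay within 1.35-fold of it. With the 75th percentile over all probes these 3 stood at 3.20, 3.51 and 3.56 log2 units. Over 1224 genes 32.0% were at least 4-fold higher there and 11.1% lower, a split of 392 and 136 that became 993 and 17 with the 75th percentile over all probes and 302 and 174 with the 50th. In the middle layer 1 HOX gene was seen that transient cartilage lacked and 17 the other way, against 2.12% and 38.9% of all genes. The deep layer had the same counts, against 2.52% and 36.7%. HOXA10 was lower by at least 26.9-fold in the middle and 48.6-fold in the deep layer, and HOXC9 by at least 47.5-fold and 85.9-fold. Over the 6 alternatives the bound of HOXA10 ran from 4.31-fold to 66.6-fold in the middle and from 5.57-fold to 66.3-fold in the deep layer, and that of HOXC9 from 7.36-fold to 118-fold and from 9.86-fold to 117-fold.

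Between adult layers, 4 members were measured in both the superficial and the middle layer and 2 differed at least 4-fold: HOXD12 lay lower in the superficial layer (-3.70 ± 0.25) and HOXD3 4.36-fold lower, with -0.18 for HOXD3 with the 50th percentile over all probes. In that pair 37.3% of 924 genes lay at least 4-fold lower and 9.09% at least 4-fold above, and that direction turned with scaling: 84 higher and 345 lower became 214 and 68 with the 50th percentile over all probes. HOXA7 and HOXB2 were 1.71-fold and 1.62-fold higher in the superficial layer. Both directions turned in 2 of 7 alternatives, with values from -1.95 to 2.72 for HOXA7 and from -2.02 to 2.65 for HOXB2. With the 50th percentile over all probes HOXA7 and HOXB2 were at least 4-fold higher, and 0 members were at least 4-fold lower. HOXA6 was at least 8.13-fold and HOXD4 at least 3.27-fold higher, and with quantile normalization neither kept a bound. Of HOX genes 7 were seen in the superficial layer and not in the middle layer and 0 the other way (21.5% and 2.24% of all genes), and also 7 and 0 with the deep layer (19.6% and 2.96%). In the superficial against the deep layer, HOXA6 was 11.8-fold higher (3.56 ± 0.31) and stood at 0.18 with quantile normalization and 0.96 with normexp. Of 5 measured members 1 was at least 4-fold higher and 0 lower, with shares of 10.9% and 21.5% over 1165 genes. That split of 127 and 250 became 215 and 114 with the 50th percentile over all probes. HOXA7 was at least 4.64-fold higher, with no bound under quantile normalization. HOXD12 was 3.48-fold lower and HOXD3 3.07-fold lower. Between the middle and deep layers 0 of 3 were at least 4-fold apart, against 20.6% of 751 genes, a split of 98 higher and 57 lower that became 43 and 87 with the 50th percentile over all probes. Seen in the middle layer only were 2 and in the deep layer only 2, against 3.61% and 6.23% of all genes. HOXD12 was 3.74-fold higher and HOXB2 1.98-fold lower in the middle layer, and HOXB2 turned to 0.21 with normexp.

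Detection on the adult arrays moved with the base composition of the probe. In the middle layer 21.7% of probes with at least 50% GC were well above background and 6.49% of those under 40% GC, while in transient cartilage it was 43.4% and 50.6%. The probe of HOXD12 has 55.0% GC, HOXA6 and HOXA7 have 45.0%, and HOXA10, at 35.0%, is among the lowest. HOXB6 and HOXB13 (55.0%) and HOXB1 and HOXC13 (53.3%) were well above background on no adult array, and HOXB6 on no fetal array either. HOXB3 (55.0%) and HOXD4 (53.3%) were in the superficial layer, and HOXD4 in the deep layer too. The reported probe of HOXD3 (40.0%) and that of HOXB2 (41.7%) were well above background on all 3 adult arrays. HOXA5 and HOXC9, with 45.0% in their reported probes, were on none. The part of base composition in these HOX values was not tested.

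The genes that work with HOX proteins were counted from lists. Differences and bounds of the genes of this and the other lists were not recomputed under the alternatives. Of 9 TALE cofactor genes 7 were on the array. All 7 were seen in the intermediate interzone, 5 in the outer layer, 5 in transient cartilage and 1 on each adult array. The shares of all genes seen were 38.3%, 44.2% and 46.5% on these fetal arrays. They were 28.9%, 9.65% and 12.3% in the superficial, middle and deep adult layers. MEIS2, a HOX and PBX partner of the proximal limb, measured 557 in the intermediate interzone, 385 in the outer layer and 69.7 in transient cartilage, a difference of 7.99-fold and 5.53-fold from the last. PBX2 was 3.01-fold higher in the intermediate interzone than in transient cartilage and 4.27-fold higher than in the outer interzone. PKNOX1 was 1.77-fold higher in the first of these pairs. PKNOX2 and MEIS3 were seen in the intermediate interzone and on no other fetal array, at least 67.1-fold and 5.91-fold above transient cartilage. Of 5 cofactors measured in the intermediate interzone and transient cartilage, 1 passed 4-fold upward and 0 downward (median 0.84). Over all genes the shares were 15.1% and 6.72%, and the median was 0.37. PBX2 alone was seen in the adult superficial layer.

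Of 35 limb identity and patterning genes 27 were on the array, and 10, 14 and 10 were seen in the intermediate interzone, the outer interzone and transient cartilage. The shares over all genes were 38.3%, 44.2% and 46.5%. The hindlimb gene TBX4 was seen in the outer interzone only (51.9), the hindlimb regulator PITX1 in the outer interzone (12.5) and transient cartilage (78.3), and the forelimb gene TBX5 on no array. These 3 were named for the tissue label and not by size. PRRX1, a mesenchyme factor, was 10.3-fold higher in the intermediate interzone than in transient cartilage, PRRX2 6.47-fold and TBX15 3.79-fold. The hedgehog receptor gene PTCH1 had a difference of -1.36 there. DLX5, a factor of cartilage and bone, was 77.2-fold lower in the outer interzone than in transient cartilage. The signal gene FGF10 was 34.1-fold higher in the intermediate than in the outer interzone.

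Genes that switch or keep HOX expression were counted in the same way. Of 28 Polycomb genes 19 were on the array and 12 were seen on each fetal array, against 38.3% to 46.5% of all genes. Of 10 measured in the intermediate interzone and transient cartilage, 1 was at least 4-fold higher (EED, 4.73-fold, a subunit of the H3K27 methylating complex) and 2 lower, PCGF6 (-3.47) and PHC1 (-2.56), with a median of 0.33. Of 15 trithorax and demethylase genes 13 were on the array, and of 6 measured in that pair 0 were at least 4-fold apart. Over all 4120 genes measured in that pair 15.1% were at least 4-fold higher and 6.72% lower, and the median was 0.37. In the retinoic acid list, 13 of 18 were on the array and 4 were measured in that pair. The binding proteins CRABP1 and CRABP2 stood 30.6-fold and 13.2-fold above transient cartilage in the intermediate interzone and 9.51-fold and 5.22-fold above it in the outer interzone. The reductase gene DHRS3 was 3.01-fold lower in the intermediate interzone and CYP26C1, which breaks retinoic acid down, 2.42-fold higher.

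Genes that lie beside the clusters were listed to see whether a region of the chromosome moved as a whole. Of 31 neighbours 22 were on the array, and 15, 13 and 16 were seen on the fetal arrays, against 38.3%, 44.2% and 46.5% of all genes. Of 14 measured in the intermediate interzone and transient cartilage, 2 passed 4-fold upward and 0 downward, against 15.1% and 6.72% of all genes. The median of the 14 was 0.36 beside 0.37 over all genes. The 2 that passed were TAX1BP1 (8.11-fold), near HOXA, and CALCOCO1 (4.14-fold), near HOXC. CBX1, near HOXB, was 3.28-fold higher and COPZ1, near HOXC, 2.98-fold lower. EVX2, a homeobox gene at the end of the HOXD cluster, was seen in the adult layers only, at 24.5, 427 and 96.9 in the superficial, middle and deep layers. Of 13 homeobox genes outside the clusters on the array, EVX2 included, 5, 6 and 5 were seen in the superficial, middle and deep layers. The shares over all genes were 28.9%, 9.65% and 12.3%. On the fetal arrays 3 to 4 of the 13 were seen, against 38.3% to 46.5%.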

How the data were processed

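Horse RNA from 6 regions was hybridised to 1-colour arrays, 1 array per region, and, per the file headers, Feature Extraction 10.7.3.1 from Agilent read the images. The deposited values are scanner intensities, background-subtracted and detrended by that software per the file headers, with flags for each spot. The deposited series table, used as an alternative, holds the authors' values as a ratio to each array's median, as set against the scanner values. Control spots and outlier spots were left out and spots of a probe averaged. Log2 intensity was scaled to the 75th percentile of 1765 probes that all arrays detected well above background. Genes were named by symbol, gene number or full name, and the probe with the highest mean stood for a gene. Members and lists were chosen with earlier results of these data known. All HOX genes enter the counts, some items are not reported here by name, and of each other list up to 4 measured members with the largest difference are named; others were named after their values were seen. With 1 array per group no test was run, and the number of arrays limits the precision. Python 3.11.15, pandas 2.3.3, R 4.3.3 and limma 3.58.1 (normexp and quantile alternatives) were used. The scripts were tested on simulated data.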

Additional observations from a re-analysis of the deposited data

How the results depend on the processing

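Of 50 differences of at least 2-fold in the HOX genes reported by name, 45 kept their direction under all 7 alternatives of scaling, background correction, source table and probe choice. With normexp, HOXA11 and HOXA2 turned to 0.26 and 0.88 between the interzone layers and HOXD4 to -0.12 in the superficial against the deep layer (-1.25 with quantile normalization). HOXC4 in the superficial layer turned to 0.67 and 0.46 against the intermediate interzone with the 75th percentile over all probes and with quantile normalization. Against the outer interzone it turned to 1.42, 1.09 and, with normexp, 0.29. The cause was not tested. Of 95 bounds for members seen on 1 array of a pair, recomputed under 6 alternatives chosen after seeing the data, 53 stayed above 1-fold in all 6 and 34 above 2-fold.

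Counts of members at least 4-fold apart moved as follows. For the intermediate interzone against transient cartilage 5 became 0 with the median of the shared probes, 3 with quantile normalization and 1 with normexp. For the outer interzone against transient cartilage 3 became 1 with normexp and 7 at 2-fold. Between the interzone layers 4 became 2 with quantile normalization, 1 with normexp and 9 at 2-fold. For the superficial layer against the intermediate interzone 2 became 6 with the 75th percentile over all probes, 4 with quantile normalization, 1 with normexp and 5 at 2-fold. Against the outer interzone 5 became 2 with normexp. Against transient cartilage 4 became 9, 8, 1 and 7 in the same order of settings. For the middle layer against transient cartilage 2 became 1 with the 50th percentile over all probes and 1 with the series table. For the deep layer 1 became 4, 4 and 0 with the 75th percentile over all probes, quantile normalization and normexp. For the superficial against the middle layer 2 became 1 with the mean over probes and 3, all lower, with quantile normalization. With the 50th percentile over all probes and with the series table the count stayed at 2, but the direction turned. It was then 2 higher and 0 lower (HOXA7 and HOXB2) in place of 0 higher and 2 lower (HOXD12 and HOXD3). Against the deep layer 1 became 3 with the 75th percentile over all probes, the median of the shared probes or quantile normalization, 2 with the 50th percentile or the series table, 0 with normexp and 4 at 2-fold. Between the middle and deep layers 0 became 1 at 2-fold. With all members, detected or not, the counts in this order of pairs were 14, 9, 13, 16, 19, 15, 18, 13, 18, 6 and 1. With genes seen on all 6 arrays HOXB2 alone was left and the counts were 0.

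A limit of 4 times the lowest signal well above background was also tried. It left 11 of 33 HOX genes in the intermediate interzone, 16 in the outer layer and 11 in transient cartilage. The shares of all genes were 28.8%, 34.4% and 34.7%. In the superficial, middle and deep layers 6, 1 and 1 were left, against 20.4%, 3.88% and 6.29%. Under this limit the HOX share was below that of all genes in transient cartilage and in each adult layer. With the scanner's weaker flag (positive and significant) the adult counts were 22, 17 and 15, against 56.0%, 40.9% and 41.8% of all genes. With every probe required the middle layer had 3, against 7.22%. The median of groups 9 to 13 minus that of groups 1 to 8 moved from 1.47 to 0.34 (all members) and 0.61 (normexp) in the intermediate interzone against transient cartilage, and from 0.62 to -0.29 (normexp) between the interzone layers. For the superficial layer groups 9 to 13 had only 1 measured gene (HOXB9) against the intermediate interzone and 2 against the outer interzone, so these values describe single genes. They moved from -6.64 to -1.11 (all 14 genes) and -2.93 (normexp), and from -4.29 to -3.01 (mean over probes), -2.30 (all 14) and -1.96 (normexp).

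No paired analysis was possible because each region had 1 array; leaving out a replicate was not possible either. Signal over background limits the middle and deep layers most, where no probe below a scaled signal of 30.0 and 16.6 was well above background.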
